A study of Rattus norvegicus with 42 samples.

Results

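The 10 genes described here serve cholesterol export, lysosomal release or storage, oxysterol synthesis or sensing, or are liver X receptor targets. All were followed in whole lung of rats that had inhaled crystalline silica or air. They were Abca1, Abcg1, Ch25h, Nr1h3, Apoe, Lipa, Npc1, Npc2, Soat1 and Mylip. The genes were chosen by symbol from 3 roles (targets of the liver X receptor, lysosomal cholesterol export and oxysterol synthesis). Earlier results of these data were known when the choice was made, so the counts of genes called below are not from a blind choice. All 10 were found among the 30045 symbols of each count table and all 10 passed the filter on low counts at both times.

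Male Fischer 344 rats, bought at 3 months of age, ate a high-fat diet with 60% of energy as fat or a regular diet with 18%. After a lead-in on these diets they breathed silica at 15 mg per cubic metre, 6 hours a day for 5 days, or air, and stayed on their diet until the lungs were taken. Lungs taken 3 months after exposure came from 5 high-fat silica rats, 5 high-fat air rats, 5 regular-diet silica rats and 4 regular-diet air rats. Those taken at 9 months came from 6, 6, 5 and 6 rats of these groups in turn. Each library was made from a piece of 1 rat's lung, and the rats are named by their tags where 1 is singled out. The labels give no batch and no pairing between rats.

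Cholesterol that reaches the lysosome as an ester is freed by lysosomal acid lipase (Lipa) and handed on by NPC2, a soluble carrier, to NPC1 in the lysosomal membrane. From there it can be esterified again for storage by SOAT1 or exported by the transporters ABCA1 and ABCG1 to apolipoproteins and HDL particles. CH25H makes the oxysterol 25-hydroxycholesterol, and oxysterols activate the liver X receptors (LXR), which pair with retinoid X receptors and raise transcription of Abca1, Abcg1, Apoe and Mylip. In the lung, alveolar macrophages take up surfactant lipid and depend on this export, and mice without ABCG1 collect lipid-laden macrophages.

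The promoter windows of 3 of these genes are shown because Abca1 is the best-known LXR target, Ch25h had the widest spread of group levels, and Npc2 had the largest silica difference at 9 months. Each window holds 250 bases before and 50 after the annotated start, from RefSeq on build GRCr8, 5′ to 3′ on the gene's own strand. The Abca1 window is chr5:72596424-72596723, that of Ch25h is chr1:241429317-241429616 and that of Npc2 is chr6:110149196-110149495, all on the minus strand. In Abca1 the capitals mark CACGTG (an E-box) and the best match to the LXR repeat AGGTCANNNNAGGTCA. In Ch25h they mark TGACGTCA (a cyclic AMP response element) and GGGCGG (a GC box). In Npc2 they mark GC boxes and the half-site AGGTCA, each on either strand.
Abca1: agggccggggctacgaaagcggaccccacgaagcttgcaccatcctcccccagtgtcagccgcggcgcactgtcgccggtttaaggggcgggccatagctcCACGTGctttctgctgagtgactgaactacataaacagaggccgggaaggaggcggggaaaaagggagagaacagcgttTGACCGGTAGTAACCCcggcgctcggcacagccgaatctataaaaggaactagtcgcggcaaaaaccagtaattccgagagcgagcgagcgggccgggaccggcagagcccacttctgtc
Ch25h: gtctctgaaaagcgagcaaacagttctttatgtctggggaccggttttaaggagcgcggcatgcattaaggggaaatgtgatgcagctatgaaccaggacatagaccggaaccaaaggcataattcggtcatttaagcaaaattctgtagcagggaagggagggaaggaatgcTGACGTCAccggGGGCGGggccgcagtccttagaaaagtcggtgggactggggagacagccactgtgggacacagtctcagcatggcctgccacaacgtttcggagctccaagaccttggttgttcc
Npc2: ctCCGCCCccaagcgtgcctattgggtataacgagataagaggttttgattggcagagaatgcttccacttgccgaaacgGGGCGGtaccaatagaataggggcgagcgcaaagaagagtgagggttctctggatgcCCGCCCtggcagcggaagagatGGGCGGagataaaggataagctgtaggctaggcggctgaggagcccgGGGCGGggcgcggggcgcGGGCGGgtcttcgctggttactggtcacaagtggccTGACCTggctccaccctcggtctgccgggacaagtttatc

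RefSeq gave 11 windows for 9 of the 10 genes, and both strands were searched. Abca1, Npc1 and Npc2 held a match to at least 9 of the 12 fixed letters of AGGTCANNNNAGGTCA, as did 21.9% of all 33469 rat windows. The Abca1 match was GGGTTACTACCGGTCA on the other strand, starting at base 181 of the window. In Npc2 the match GGGTGGAGCCAGGTCA included the half-site. CACGTG was in the Abca1 window alone (6.42% of all windows), TGACGTCA in that of Ch25h alone (1.83%) and an intact AGGTCA in that of Npc2 alone (16.2%). GGGCGG was in 8 of the 11 windows, against 33.1% of all. Apoe has several of these windows, and those that overlap each other are counted separately. These matches are letters in a window, and whether they are bound was not tested here. The build named in the submitters' processing notes is the earlier Rnor_6.0. The window of Lipa, chr1:241470691-241470990, lies on the same strand of the same chromosome as that of Ch25h.

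The 3-month libraries held 5143424 to 8259635 counts and the 9-month libraries 3078216 to 8319382, and the 10 genes together took 9289 to 31721 counts per library. Levels are given in CPM, counts divided by the library size after TMM scaling. Each time point was scaled on its own table, so levels are compared within a time point. The share of counts on the ribosomal RNA genes Rnr1 and Rnr2 averaged between 0.957% and 1.26% in the 3-month groups. The 9-month means were 7.66% ± 0.22 (SD, n = 6) in high-fat silica rats, 6.21% ± 1.11 (n = 6) in high-fat air rats, 3.67% ± 1.07 (n = 5) in regular-diet silica rats and 1.22% ± 0.70 (n = 6) in regular-diet air rats. Markers of lung epithelium, endothelium and macrophages were counted in every group. Mpo was at 0 in some 3-month groups. Col1a2 and Cd79a were at 0 in some 3-month groups and in every 9-month group, so these symbols give no level there. The reason was not tested.

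Silica and air rats were compared first, on each diet and at each time, to ask which of the genes differed after the exposure. At 3 months 6 of the 10 genes were higher with silica on the high-fat diet and the same 6 on the regular diet, and 0 were lower. They were Abcg1, Ch25h, Lipa, Npc1, Npc2 and Soat1. Of all 15234 genes tested, 17.4% were called on the high-fat diet (9.23% higher) and 16.8% on the regular diet (10.2% higher). At 9 months 9 genes were higher on the high-fat diet, all but Mylip, and 7 on the regular diet, all but Ch25h, Nr1h3 and Mylip. There 51.6% of 15276 genes were called on the high-fat diet (26.7% higher) and 45.1% on the regular diet (24.5% higher). A gene was called when its adjusted p in edgeR's quasi-likelihood test, with Benjamini-Hochberg adjustment over all genes, was below 0.05. Because these are pieces of whole lung, a change in cell numbers and a change in RNA per cell cannot be told apart.

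The median log2 difference of the 10 genes was 0.39 on the high-fat diet and 0.42 on the regular diet at 3 months, against -0.01 over all genes on both. At 9 months it was 0.85 and 0.49, against 0.00 over all genes on both. In all 4 comparisons together the differences ran from -0.16 to 1.50. Every silica rat lay above every air rat for 6 genes on each diet at 3 months (7.37% of all genes on the high-fat diet, 8.77% on the regular diet). At 9 months this held for 8 genes on the high-fat diet (16.8% of all genes) and 7 on the regular diet (14% of all genes).

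**Figure D1:**
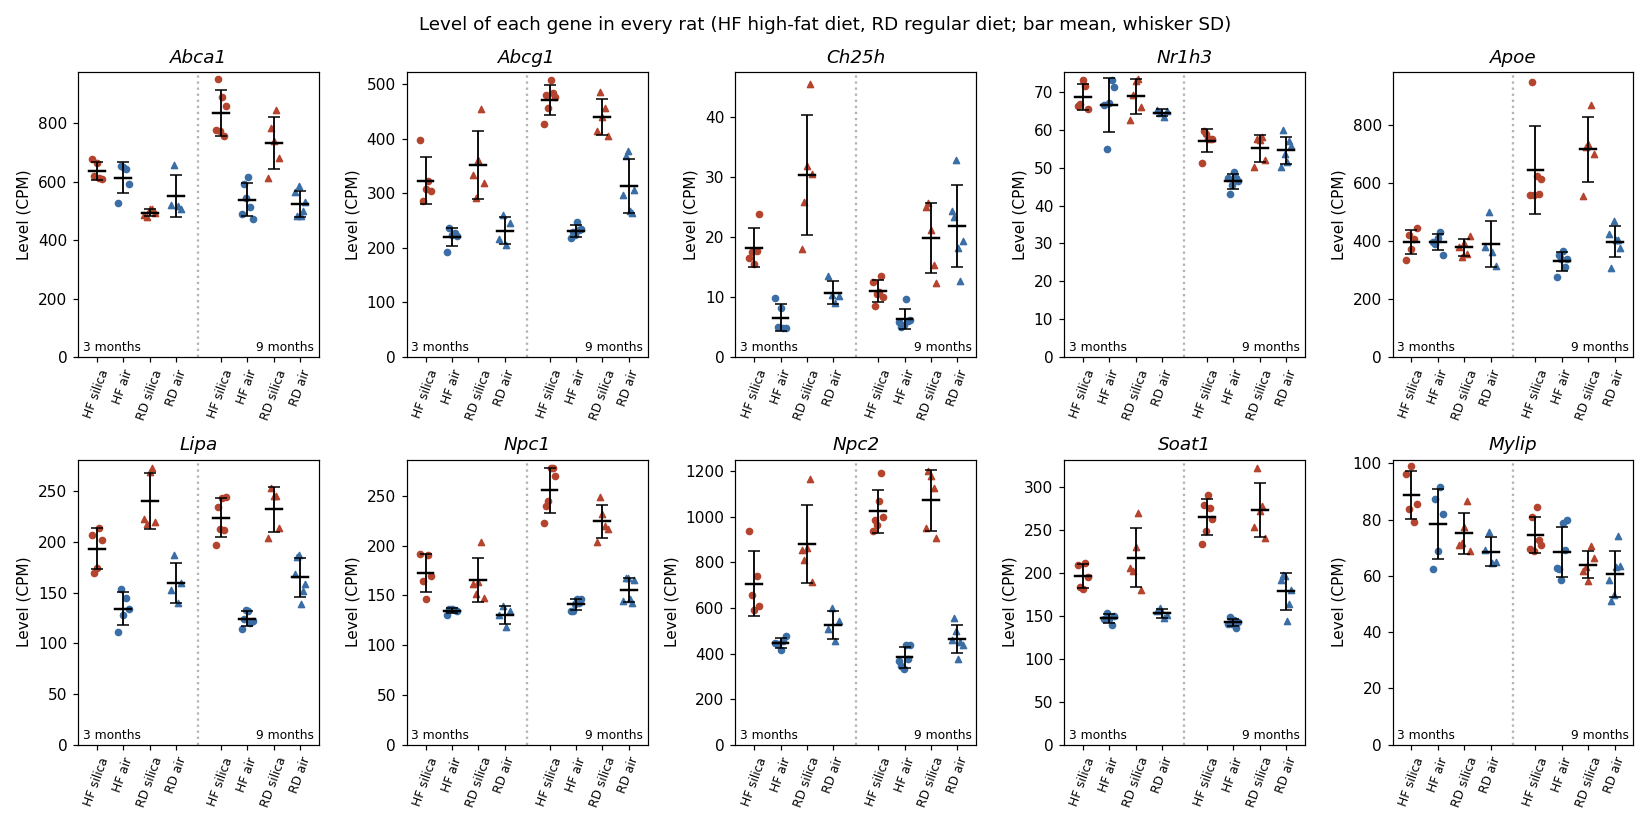
Level of each of the 10 genes in CPM (vertical axes, from 0) for every rat, by diet and exposure, with 3 months at the left and 9 months at the right of each panel. Points are rats, bars the group mean and whiskers the SD. At 9 months Npc2 lay between 937 and 1192 CPM with silica and between 334 and 439 CPM in air on the high-fat diet.

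Of the export genes, Abcg1 was higher with silica at both times and Abca1 at 9 months alone. ABCA1 loads cholesterol onto lipid-poor apolipoprotein. At 3 months on the high-fat diet Abca1 stood at 678, 619, 665, 613 and 608 CPM with silica and at 529, 655, 650.1, 645 and 592 CPM in air. These ranges overlapped, and the log2 difference was 0.05 ± 0.07 (SE, adjusted p = 0.67). Regular-diet rats had 485, 478, 505, 507 and 493 CPM of Abca1 with silica and 520.2, 658, 515 and 508 CPM in air. All 5 silica rats lay below all 4 air rats there, as was so for 5.97% of all genes, but the difference of -0.16 ± 0.07 was not called (adjusted p = 0.13).

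At 9 months the levels of Abca1 on the high-fat diet had a lowest, median and highest value of 756, 819 and 952 CPM with silica and 472, 529 and 615 CPM in air. For the regular diet the 5 silica rats had 614, 783, 741, 845 and 681 CPM, and the lowest, median and highest air rats 482, 516 and 587 CPM. The groups did not overlap on either diet. Abca1 rose by 0.63 ± 0.08 on the log2 scale on the high-fat diet, 1.55-fold (adjusted p = 2.2e-07), and by 0.48 ± 0.08 on the regular diet, 1.40-fold (adjusted p = 2.8e-05).

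ABCG1 exports cholesterol to HDL particles. On the high-fat diet at 3 months Abcg1 stood at 397, 285, 307, 322 and 303 CPM with silica, against 191, 236, 223, 226 and 222 CPM in air. Regular-diet rats had 333, 291, 361, 454 and 319 CPM with silica, against 216, 259.9, 206 and 245 CPM in air. Every silica rat was above every air rat of its diet, and the gene rose by 0.56 ± 0.10 on the high-fat diet (adjusted p = 0.00054) and 0.60 ± 0.11 on the regular diet (adjusted p = 0.00058).

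At 9 months after exposure the high-fat rats had a lowest, median and highest Abcg1 level of 426, 478 and 506 CPM with silica and 217, 230.4 and 247 CPM in air. The regular-diet silica rats had 413, 485, 439.8, 456 and 405 CPM, and the air rats 263, 301 and 377 CPM (lowest, median, highest). The groups stayed apart on both diets. The rise was 1.03 ± 0.07 on the high-fat diet, 2.04-fold (adjusted p = 1.4e-11), and 0.49 ± 0.08 on the regular diet, 1.41-fold (adjusted p = 9.1e-06).

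APOE, a lipoprotein component that accepts exported cholesterol, showed no called silica difference at 3 months and a large one at 9 months. On the high-fat diet at 3 months Apoe stood at 336, 420.1, 373, 409 and 444 CPM with silica and 398, 392, 411, 432 and 354 CPM in air. The regular-diet rats had Apoe at 380.2, 346, 395, 357 and 417 CPM with silica and 381, 501, 361 and 314 CPM in air. The ranges overlapped on both diets, with differences of 0.00 ± 0.09 on the high-fat diet and -0.04 ± 0.10 on the regular diet.

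Apoe at 9 months on the high-fat diet ran 561, 588 and 952 CPM with silica and 278, 338 and 366 CPM in air (lowest, median, highest). With silica on the regular diet it was 555, 724, 736, 872 and 701 CPM, and in air 308, 405 and 471 CPM (lowest, median, highest). No air rat reached the lowest silica rat of its diet. The rise was 0.97 ± 0.12 on the high-fat diet, 1.95-fold (adjusted p = 2e-07), and 0.85 ± 0.12 on the regular diet, 1.80-fold (adjusted p = 3.3e-06). Rat SO_09_134, the high-fat silica rat with the highest Apoe, also had the smallest library, at 3078216 counts.

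Ch25h was the gene whose silica difference was largest at 3 months, and it rested on few reads, 25 to 272 counts per library. High-fat silica rats had 16.5, 17.6, 15.4, 17.7 and 23.9 CPM at 3 months, against 9.80, 5.04, 8.20, 4.87 and 4.85 CPM in high-fat air rats. Regular-diet silica rats had 18.1, 25.8, 31.8, 45.5 and 30.5 CPM, against 13.5, 10.3, 8.93 and 10.2 CPM in regular-diet air rats. All silica rats were above all air rats of their diet, with a rise of 1.46 ± 0.24 on the high-fat diet, 2.75-fold (adjusted p = 0.00019), and 1.50 ± 0.23 on the regular diet, 2.83-fold (adjusted p = 7.2e-05).

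At 9 months the high-fat rats had a lowest, median and highest Ch25h of 8.54, 10.7 and 13.6 CPM with silica and 5.04, 5.94 and 9.58 CPM in air. The ranges met at 1 air rat, SO_09_127, and the gene rose by 0.82 ± 0.22 (adjusted p = 0.0035). Among regular-diet rats the silica rats had 24.9, 25.7, 21.1, 15.3 and 12.4 CPM and the air rats 12.7, 21.3 and 32.9 CPM (lowest, median, highest). These groups overlapped throughout, and the difference was -0.12 ± 0.19 (adjusted p = 0.62).

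NR1H3 is LXR alpha itself. Its level at 3 months lay at 66.3, 66.9, 73.3, 71.6 and 65.5 CPM with silica and 66.7, 54.9, 67.1, 73.2 and 71.5 CPM in air on the high-fat diet. It lay at 62.5, 69.3, 72.9, 73.6 and 66.0 CPM with silica and 65.3, 64.4, 63.4 and 65.1 CPM in air on the regular diet. Neither difference was called (0.04 ± 0.07 on the high-fat diet, 0.09 ± 0.07 on the regular diet). At 9 months the high-fat rats had a lowest, median and highest Nr1h3 of 51.2, 57.6 and 59.8 CPM with silica and 43.2, 46.9 and 48.8 CPM in air, without overlap. The rise was 0.29 ± 0.05, 1.23-fold (adjusted p = 5.1e-05). Regular-diet silica rats then had 50.2, 57.5, 57.4, 58.2 and 52.2 CPM and the air rats 50.2, 54.7 and 59.9 CPM (lowest, median, highest), with a difference of 0.01 ± 0.06 that was not called.

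Lysosomal release of cholesterol runs through Lipa, Npc2 and Npc1, and all 3 were higher with silica in all 4 comparisons with no overlap between the groups. Npc2 had the largest differences. At 3 months it stood at 939, 657, 590.0, 741 and 609.6 CPM with silica and 447, 440.3, 416, 454 and 476 CPM in air on the high-fat diet. The regular diet gave Npc2 at 855, 809, 863, 1166 and 712 CPM with silica and 509, 601, 454 and 543 CPM in air. The rise was 0.66 ± 0.12 on the high-fat diet (adjusted p = 0.0004) and 0.74 ± 0.13 on the regular diet (adjusted p = 0.00029).

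Npc2 at 9 months ran 937, 993 and 1192 CPM with silica and 334, 371 and 439 CPM in air on the high-fat diet (lowest, median, highest). Silica rats of the regular diet had 952, 1199.6, 1182, 1125 and 908 CPM and the air rats 378, 454 and 558 CPM (lowest, median, highest). Each silica rat was above the highest air rat of its diet. The rise was 1.42 ± 0.09 on the high-fat diet, 2.67-fold (adjusted p = 1.5e-12), and 1.21 ± 0.09 on the regular diet, 2.31-fold (adjusted p = 1.2e-10).

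Lipa at 3 months stood at 206, 169.8, 174, 214 and 202 CPM with silica and 111.1, 154, 127.9, 144 and 134.3 CPM in air on the high-fat diet. With the regular diet Lipa was at 223, 218, 269, 273 and 220.0 CPM with silica and 153, 187, 139.8 and 159.9 CPM in air. Its rise was 0.52 ± 0.09 on the high-fat diet (adjusted p = 0.00042) and 0.59 ± 0.10 on the regular diet (adjusted p = 0.00027). Every silica rat was above every air rat of its diet. At 9 months Lipa ran 197, 223 and 244 CPM with silica and 114.1, 123.2 and 133.03 CPM in air on the high-fat diet (lowest, median, highest). Regular-diet silica rats had 204, 253, 245, 245 and 214 CPM and air rats 138.7, 164 and 187 CPM (lowest, median, highest). The Lipa groups were again apart on both diets. The rise at 9 months was 0.85 ± 0.07 on the high-fat diet (adjusted p = 3.5e-10) and 0.49 ± 0.07 on the regular diet (adjusted p = 6e-06).

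Npc1 at 3 months stood at 192, 165, 147, 190.2 and 169 CPM with silica and 130.1, 136.5, 136.1, 135.6 and 133.9 CPM in air on the high-fat diet. With the regular diet Npc1 was at 162, 152, 163, 204 and 147 CPM with silica and 130.2, 139.6, 118.3 and 134.3 CPM in air. It rose by 0.36 ± 0.08 on the high-fat diet (adjusted p = 0.0027) and 0.34 ± 0.08 on the regular diet (adjusted p = 0.0079). The lowest silica rat was above the highest air rat on each diet. At 9 months Npc1 ran 222, 257 and 278 CPM with silica and 133.98, 142 and 146 CPM in air on the high-fat diet (lowest, median, highest). Regular-diet silica rats had 204, 249, 232, 219.9 and 217 CPM and air rats 142, 156 and 167 CPM (lowest, median, highest). Npc1 groups did not overlap at this time either. The gene was up by 0.86 ± 0.06 on the high-fat diet (adjusted p = 9.7e-12) and by 0.53 ± 0.06 on the regular diet (adjusted p = 1.7e-07).

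Storage was represented by Soat1, which esterifies cholesterol for lipid droplets. Soat1 at 3 months was 209, 184, 182, 211 and 195 CPM with silica and 146, 153, 146, 138.7 and 150.0 CPM in air on the high-fat diet. In regular-diet rats it was 205, 201, 230.2, 269.7 and 179.6 CPM with silica and 155, 159, 147 and 150.3 CPM in air. No silica rat fell within the air range of its diet, and Soat1 rose by 0.42 ± 0.08 on the high-fat diet (adjusted p = 0.00058) and 0.51 ± 0.08 on the regular diet (adjusted p = 0.00018).

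By 9 months Soat1 ran 234, 269 and 290.0 CPM with silica and 135.5, 142 and 148 CPM in air on the high-fat diet (lowest, median, highest). Among rats of the regular diet the silica rats had 253, 322, 271, 278 and 239.8 CPM and the air rats 143, 186 and 197 CPM (lowest, median, highest). Soat1 groups again did not overlap. The rise was 0.90 ± 0.07 on the high-fat diet (adjusted p = 1.6e-10) and 0.61 ± 0.08 on the regular diet (adjusted p = 3.1e-07). Mylip, which encodes a ubiquitin ligase, was called in none of the 12 comparisons. Its group means lay between 60.7 and 88.8 CPM, and its silica differences between 0.08 and 0.18 with overlapping groups throughout.

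**Figure D2:**
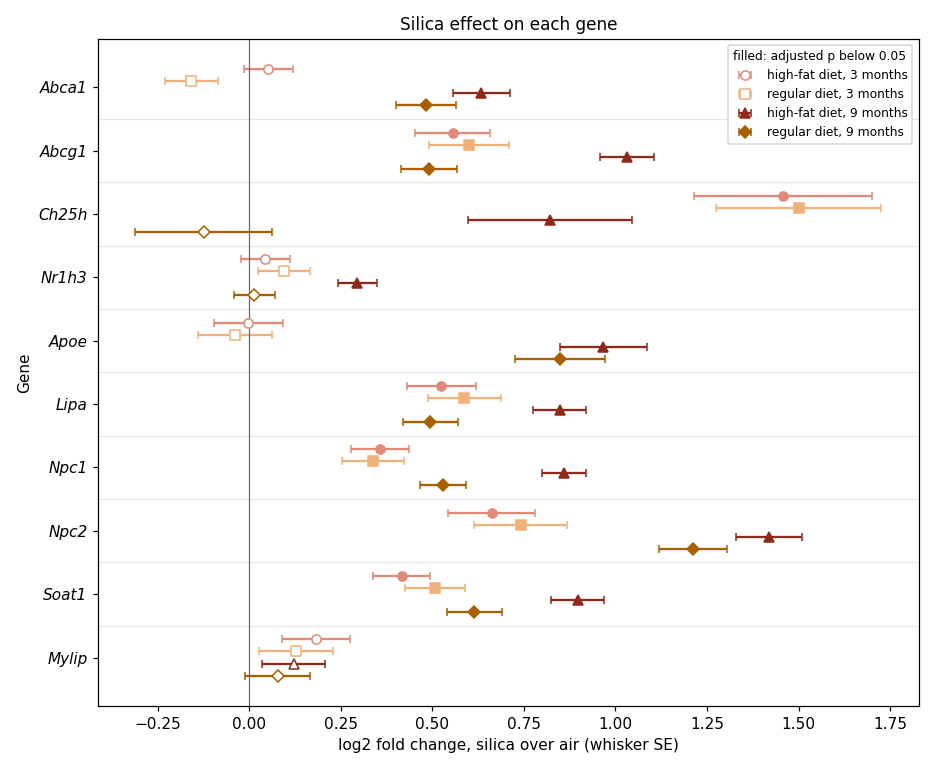
Log2 fold change of silica over air for each gene (horizontal axis, whiskers SE) in the 4 comparisons, with filled symbols where the adjusted p was below 0.05. Npc2 stood at 1.42 and Apoe at 0.97 on the high-fat diet at 9 months, while Apoe stood near 0 at 3 months.

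The silica difference at 9 months minus that at 3 months was tested in 1 fit of all 8 groups, and these tests use the same rats as the comparisons above. On the high-fat diet 7 of the 10 genes had a larger silica difference at 9 months and 0 a smaller one, while 10.7% of 15759 genes were called (6.55% larger). They were Apoe (0.97 ± 0.16, adjusted p = 0.00014), Npc2 (0.76 ± 0.15, adjusted p = 0.001), Abca1 (0.58 ± 0.11, adjusted p = 0.00049), Npc1 (0.50 ± 0.10, adjusted p = 0.00096), Soat1 (0.48 ± 0.11, adjusted p = 0.0036), Abcg1 (0.48 ± 0.13, adjusted p = 0.012) and Nr1h3 (0.25 ± 0.08, adjusted p = 0.044). The call of Nr1h3 was lost in 4 of 5 alternative fits (RLE scaling, no filter, the ribosomal RNA share and DESeq2) and without each of 20 of the 22 rats in turn, with adjusted p of 0.051 to 0.16, and it was kept without rat SO-03-51 or SO_09_133.

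On the regular diet the silica difference was larger at 9 months for Apoe (0.88 ± 0.17, adjusted p = 0.0014) and Abca1 (0.63 ± 0.12, adjusted p = 0.0006), and smaller for Ch25h. There 6.78% of genes were called. The Ch25h value was -1.63 ± 0.31 (adjusted p = 0.00082), and once the ribosomal RNA share was a covariate it was -1.34 (adjusted p = 0.066). With that share as covariate 284 of all genes were called on the regular diet, against 1068 without it. Time after exposure, age and count table cannot be told apart in these differences. Nor can the ribosomal RNA share, which did not overlap between silica and air rats of either diet at 9 months.

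Diets were compared within each exposure, to ask whether the high-fat diet shifted these genes by itself or after silica. At 3 months 0 of the 10 genes was called between diets in air, by edgeR's quasi-likelihood test and by DESeq2, and 3 had an unadjusted p below 0.05, as did 21% of all genes. In that comparison 2.95% of all genes were called. With silica at 3 months 1 gene was called, Abca1, against 0.702% of all genes (0.295% higher). The 5 high-fat silica rats, at 678, 619, 665, 613 and 608 CPM, lay above the 5 regular-diet silica rats, at 485, 478, 505, 507 and 493 CPM, as was so for 0.965% of all genes, and the difference was 0.37 ± 0.07 (adjusted p = 0.0086). Ch25h was lower on the high-fat diet by point estimate in both (-0.73 with silica, adjusted p = 0.066, and -0.69 in air, adjusted p = 0.17).

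At 9 months in air 6 of the 10 genes were lower on the high-fat diet and 0 higher, while 15.2% of all genes were called (7.06% lower). The largest was Ch25h, whose lowest, median and highest levels were 5.04, 5.94 and 9.58 CPM on the high-fat diet and 12.7, 21.3 and 32.9 CPM on the regular diet. These groups did not overlap, and the difference was -1.77 ± 0.20 (adjusted p = 3.6e-06). Abcg1 (-0.44 ± 0.07, adjusted p = 0.00022), Lipa (-0.41 ± 0.07, adjusted p = 0.00041) and Nr1h3 (-0.23 ± 0.05, adjusted p = 0.0036) were also lower with no overlap, so that every high-fat rat lay below every regular-diet rat for 4 genes (2.68% of all genes). Soat1 (-0.33 ± 0.07, adjusted p = 0.0033) and Npc2 (-0.27 ± 0.09, adjusted p = 0.037) were lower with overlapping groups. The call of Npc2 was lost with 2 groups in the fit (adjusted p = 0.053) and without any of rats SO_09_109, SO_09_110, SO_09_111, SO_09_121, SO_09_122, SO_09_124 or SO_09_128 (adjusted p of 0.055 to 0.12). Abca1 (0.04), Apoe (-0.27), Npc1 (-0.14) and Mylip (0.17) were not called.

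The ribosomal RNA share of these 9-month air libraries ran from 4.62% to 7.19% on the high-fat diet and from 0.375% to 2.29% on the regular diet. Once that share was a covariate 0 of the 10 genes was called between diets in air, and 1 of all genes, against 2325 without it. Of the 6, Ch25h was then -1.12 ± 0.51, Npc2 -0.40 ± 0.24, Abcg1 -0.38 ± 0.19, Nr1h3 -0.33 ± 0.14, Lipa -0.23 ± 0.18 and Soat1 -0.07 ± 0.18. The share did not overlap between these groups, nor between silica and air rats of either diet or between the diets with silica at 9 months. It ran from 7.29% to 7.85% in high-fat silica rats and from 2.597% to 5.35% in regular-diet silica rats, above the air rats of the same diet. At 9 months neither diet nor silica can therefore be told apart from the share. With the share as covariate 6 genes were higher with silica on each diet at 3 months. At 9 months 9 were higher on the high-fat diet and 7 on the regular diet. Because the groups do not overlap in the share at 9 months, these last counts do not separate silica from it.

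With silica at 9 months only Ch25h was called between diets, and 3.52% of all genes (1.7% lower). The high-fat silica rats had a lowest, median and highest Ch25h of 8.54, 10.7 and 13.6 CPM, and the regular-diet silica rats 24.9, 25.7, 21.1, 15.3 and 12.4 CPM. These ranges overlapped at the low end of the regular diet, and the difference was -0.83 ± 0.20 (adjusted p = 0.023). The call was lost once the ribosomal RNA share was a covariate, where the difference was -0.28 ± 0.44, and also without any of rats SO_09_115, SO_09_117, SO_09_118 or SO_09_141.

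**Figure D3:**
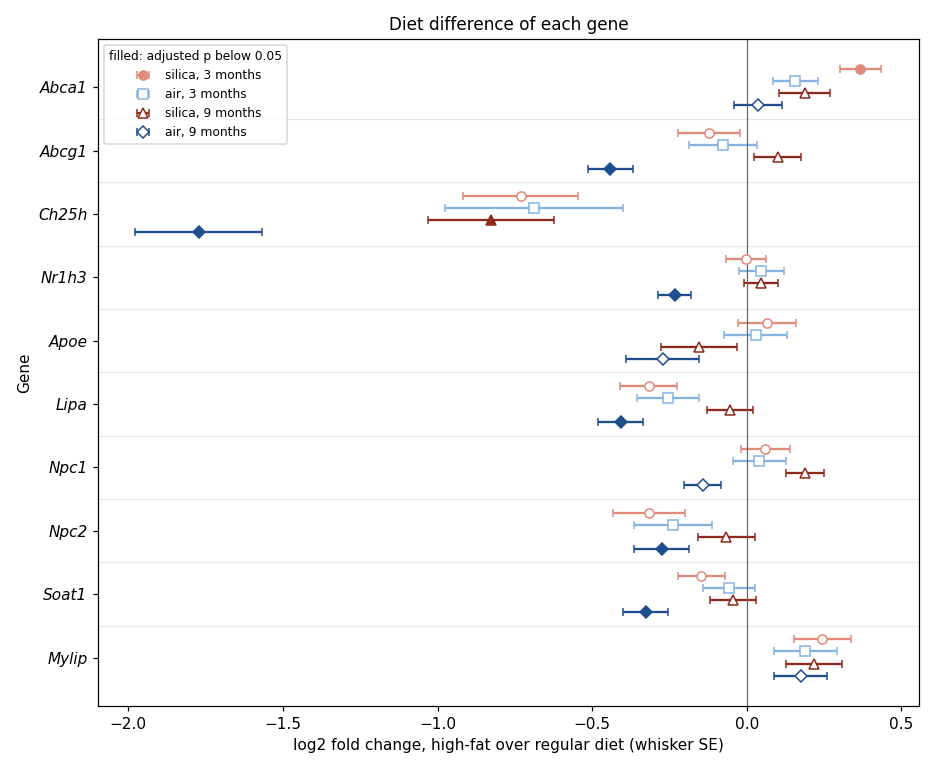
Log2 fold change of the high-fat over the regular diet for each gene (horizontal axis, whiskers SE) within each exposure and time, with filled symbols where the adjusted p was below 0.05. The lowest value is that of Ch25h in air at 9 months, -1.77, and Abca1 with silica at 3 months is the filled symbol above 0, 0.37.

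The silica difference on the high-fat diet minus that on the regular diet (the interaction) was called for 0 of the 10 genes at 3 months, where edgeR's quasi-likelihood test called 0% of all genes. At an unadjusted p below 0.05 it held 1 of the 10 and 6.5% of all genes, and DESeq2 called 0 of the 10. At 9 months it was called for Abcg1 (0.54 ± 0.11, adjusted p = 0.016), against 1.09% of all genes (0.55% higher). High-fat silica rats averaged 471 ± 27.3 CPM of Abcg1 and high-fat air rats 230.5 ± 10.5 CPM (SD, n = 6 each). Regular-diet silica rats averaged 439.7 ± 32.5 CPM (SD, n = 5) and regular-diet air rats 313 ± 49.1 CPM (SD, n = 6). The silica ranges of the diets overlapped and the air ranges did not. All 10 genes had an interaction above 0 at 9 months, from 0.04 for Mylip to 0.95 for Ch25h, and 6 had an unadjusted p below 0.05, as did 14.2% of all genes. The median of the 10 was 0.28, against 0.00 over all genes, and 9 of the 10 were not called. These comparisons share their rats with the silica and diet comparisons above. They are without the ribosomal RNA share in the fit, which did not overlap between the diets within either exposure at 9 months. With that share as covariate the diet difference of Abcg1 in air was -0.38 and not called.

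Marker genes of lung cell types were called in both directions with silica. Of all genes, 17.4% were called with silica on the high-fat diet at 3 months (9.23% higher) and 16.8% on the regular diet (10.2% higher). At 9 months these shares were 51.6% (26.7% higher) and 45.1% (24.5% higher). Of 11 alveolar macrophage markers, 9 were higher and 1 lower with silica at 9 months on both diets, and 4 higher and 0 lower at 3 months on both diets. Their summed level at 9 months ran from 1204 to 1408 CPM with silica and from 803.5 to 906 CPM in air on the high-fat diet. It ran from 1295 to 1650 CPM with silica and from 936.5 to 1279 CPM in air on the regular diet. The silica and air sums did not overlap on either diet. At 3 months the sum ran from 975 to 1198 CPM with silica and from 841 to 933 CPM in air on the high-fat diet. On the regular diet it ran from 1183 to 1676 CPM with silica and from 938 to 1108 CPM in air. They did not overlap at 3 months either.

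Of the 12 monocyte and interstitial macrophage markers 10 were in the tables. With silica 5 were higher at 3 months and 8 at 9 months on the high-fat diet, and 6 and 7 on the regular diet, with 0 lower. Between diets in air at 9 months, 6 of the 11 alveolar macrophage markers and 5 of these 10 were lower on the high-fat diet and 0 higher. In that comparison 15.2% of all genes were called (7.06% lower). These calls are without the ribosomal RNA share in the fit, which did not overlap between the diets in air at 9 months. With that share as covariate 1 of all genes was called, against 2325 without it. Of 10 alveolar type 2 cell markers, 8 were higher with silica on the high-fat diet at both times, and 8 and 7 on the regular diet, and 1 was lower on each diet at 9 months. Endothelial markers went the other way, with 6 and 9 of 9 lower on the high-fat diet at 3 and 9 months, and 5 and 8 of 9 on the regular diet. Neutrophil markers were 8 of 10 tested, with 3 higher at 3 months and 6 at 9 months on the high-fat diet, 6 at both times on the regular diet, and 0 lower.

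The summed level of the 10 neutrophil markers at 3 months ran from 471 to 602 CPM with silica and from 106 to 269 CPM in air on the high-fat diet, and from 548 to 829.6 CPM with silica and from 149 to 191 CPM in air on the regular diet. At 9 months it ran from 943 to 1207 CPM with silica and from 176 to 298 CPM in air on the high-fat diet, and from 562 to 1446 CPM with silica and from 136.3 to 401 CPM in air on the regular diet. These sums did not overlap in any of the 4 comparisons. Of 8 alveolar type 1 cell markers, 5 were lower at 3 months and 7 at 9 months on the high-fat diet, and 6 at both times on the regular diet, with 1 higher on each diet at 9 months. Of 6 fibroblast markers tested, 2 were lower on each diet at 3 months, and 6 on the high-fat diet and 5 on the regular diet at 9 months. T cell markers were called at 9 months alone, with 2 of 7 higher on the high-fat diet and 6 of 7 on the regular diet. Of all genes, 26.7% and 24.5% were called higher in those comparisons, so the first count is near that share. Of 5 B and plasma cell markers tested, 1 was higher on each diet at 3 months and 2 at 9 months. Erythroid markers were lower on the high-fat diet (5 of 6 at 3 months, 4 of 6 at 9 months) and 0 were called on the regular diet. Airway (4 of 7 and 3 of 7) and muscle markers (4 of 6 and 2 of 6) were lower at 9 months on the high-fat and the regular diet in that order. Of all genes, 51.6% and 45.1% were called in either direction in those comparisons. Whether any of these marker counts differs from the shares of all genes was not tested. The part of these cell markers in the results was not tested.

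Other genes of the pathway were read from 6 lists with 76 symbols. With silica at 9 months the share of a list called in either direction ran from 46.2% to 72.7% on the high-fat diet, against 51.6% of all genes, and from 40% to 66.7% on the regular diet, against 45.1% of all genes. At 3 months it ran from 20% to 50% on the high-fat diet, against 17.4% of all genes, and from 0% to 50% on the regular diet, against 16.8%. Differences between the lists, or from all genes, were not tested. Of 19 partners and other targets of LXR, 15 were tested, and with silica at 9 months 6 were higher and 1 lower on the high-fat diet and 6 higher and 0 lower on the regular diet. In either direction these shares of 46.7% and 40% were below the 51.6% and 45.1% of all genes. The 6 of 15 higher on each diet stand against 26.7% and 24.5% of all genes called higher. At 3 months 3 were higher and 1 lower on both diets. Lpcat3, which remodels phospholipids, rose by 0.80 ± 0.07 on the high-fat diet and 0.71 ± 0.07 on the regular diet at 9 months. Smpdl3a, a phosphodiesterase, rose by 0.96 ± 0.10 and 0.75 ± 0.10 in the same order. Srebf1, the driver of fatty acid synthesis, rose by 0.84 ± 0.09 on the high-fat diet and 0.24 ± 0.09 on the regular diet at 9 months. Lpl, lipoprotein lipase, rose at 3 months by 0.25 ± 0.07 on the high-fat diet and 0.52 ± 0.07 on the regular diet and was not called at 9 months.

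Among 15 oxysterol enzymes, carriers and a receptor, 12 were tested, and 5 were higher and 2 lower with silica at 9 months on both diets. At 3 months 2 were higher and 1 lower on the high-fat diet, and 3 higher and 2 lower on the regular diet. Gpr183, the receptor for an oxysterol made from 25-hydroxycholesterol, rose on the high-fat diet by 0.62 ± 0.15 at 3 months and 1.03 ± 0.12 at 9 months. On the regular diet it rose by 0.71 ± 0.16 and 0.88 ± 0.11. Osbpl8, an oxysterol-binding carrier, rose by 0.96 ± 0.07 on the high-fat diet and 1.03 ± 0.07 on the regular diet at 9 months. Cyp27a1, which makes 27-hydroxycholesterol, was lower at 9 months, with log2 differences of -0.34 ± 0.06 on the high-fat diet and -0.60 ± 0.06 on the regular diet. Osbpl5 was lower in all 4 comparisons.

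All 13 genes of lysosomal membrane and sterol transport were tested, and with silica 4 and 6 were higher on the high-fat diet at 3 and 9 months, and 3 and 6 on the regular diet, with 0 lower. At 9 months 46.2% of the list was called on each diet, all of it higher. Of all genes 51.6% were called on the high-fat diet (26.7% higher) and 45.1% on the regular diet (24.5% higher). Stard3, which carries sterol from the lysosome, rose by 0.51 ± 0.06 on the high-fat diet and 0.46 ± 0.06 on the regular diet at 9 months, and the membrane proteins Lamp1 and Lamp2 rose in all 4 comparisons. Of 8 genes of sterol ester storage, 6 were tested. With silica at 9 months 3 were higher and 1 lower on the high-fat diet and 2 higher and 2 lower on the regular diet, and at 3 months 2 higher and 1 lower, and 3 higher and 0 lower. Nceh1, a sterol ester hydrolase, rose by 1.01 ± 0.06 on the high-fat diet and 0.60 ± 0.06 on the regular diet at 9 months. Plin2, a lipid droplet coat protein, rose by 1.00 ± 0.06 and 0.67 ± 0.06 in the same order.

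Of 12 lipoprotein receptors and HDL genes, 11 were tested at 9 months and 10 at 3 months. With silica 6 were higher and 2 lower at 9 months on the high-fat diet, and 5 higher and 2 lower on the regular diet. At 3 months 4 were higher and 1 lower on the high-fat diet, and 5 higher and 0 lower on the regular diet. Msr1, a scavenger receptor of macrophages, rose by 1.62 ± 0.12 on the high-fat diet and 0.94 ± 0.13 on the regular diet at 9 months. Of 10 genes of sterol sensing and synthesis, 7 were higher on the high-fat diet and 5 on the regular diet at 9 months, and 2 and 0 at 3 months, with 0 lower. Sqle, an enzyme of cholesterol synthesis, rose by 0.96 ± 0.09 on the high-fat diet and 0.71 ± 0.09 on the regular diet at 9 months.

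Between diets in air at 9 months, where 15.2% of all genes were called (7.06% lower), 0 were higher and 4 lower of the oxysterol list, 0 and 4 of the lysosomal list, 1 and 4 of the storage list, 2 and 3 of the lipoprotein list, 2 and 2 of the LXR list, and 4 and 0 of the sterol sensing list. Msr1 (-0.78 ± 0.12) and Gpr183 (-0.46 ± 0.12) were lower on the high-fat diet, whereas Srebf2, the regulator of cholesterol synthesis, was higher by 0.28 ± 0.05. These are differences without the ribosomal RNA share in the fit.

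To describe the patterns, each gene's 8 group means of log2 CPM (with 0.5 added) were centred within a time point and set beside those of 12604 genes. The measure of likeness was the root-mean-square difference over the 8 means. The nearest to Abca1 were Lad1 (0.062), Arl4c (0.07), which is itself on the LXR list, and RT1-CE7 (0.085). Abcg1 was nearest to Stom (0.048), Vim (0.051) and Trpm6 (0.051), and Soat1 to Stom (0.018), Snx8 (0.03) and Hcls1 (0.031). Npc2 was nearest to Ddhd1 (0.051), Pld3 (0.052) and Dpp7 (0.068), Npc1 to Bmf (0.023), Rnf19b (0.036) and Sbno2 (0.04), and Lipa to Gsap (0.036), Tlr13 (0.041) and Hexa (0.046). Apoe was nearest to MGC108823 (0.062), Tagap (0.066) and Galnt7 (0.082). Ch25h had no close neighbour, since Slc7a2, Itgax and Trem2 stood 0.32, 0.36 and 0.36 away. Its own pattern had a root-mean-square size of 0.74, and that of Abca1 0.23.

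**Figure D4:**
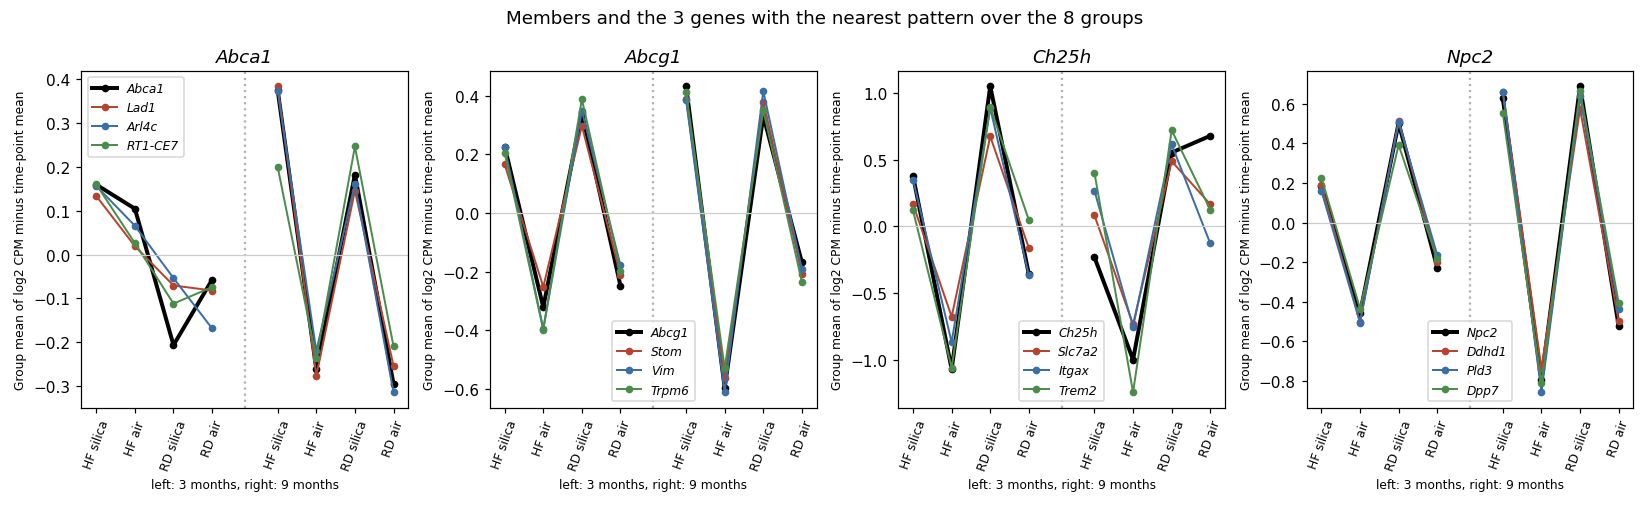
Group means of log2 CPM minus their time-point mean (vertical axis) over the 8 groups for Abca1, Abcg1, Ch25h and Npc2 (black) and the 3 genes nearest to each (colours). The lines of Abcg1 and Npc2 run with their neighbours, while Ch25h stands apart in regular-diet air rats at 9 months.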

How the data were processed

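RNA sequencing of lung pieces from 42 rats was read from 1 table of raw counts per gene symbol for each time point, deposited by the authors. The submitters' processing notes name Rnor_6.0, TopHat2 2.0.9, Bowtie2 2.2.9, HTSeq 0.6.1, SAMtools 0.1.19, Trimmomatic 0.35 and bcl2fastq 2.19. Libraries were stranded and depleted of ribosomal RNA, per the labels' protocols. The strand setting and annotation source are not given in the sources used here, so counts of overlapping genes and near-identical copies are uncertain.

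Genes were filtered with filterByExpr and scaled by TMM, and quasi-likelihood models with 1 coefficient per group were fitted in edgeR 4.0.16 (R 4.3.3), after tests on simulated data. The 4 groups of a time point shared 1 fit. Standard errors come from the F statistic. The 12 comparisons were repeated with RLE scaling, no filter, the older quasi-likelihood method, 2 groups per fit, the ribosomal RNA share as covariate, DESeq2 1.42.0, and without each rat in turn. Library pairs differed by more than counting error (chi-square per degree of freedom at least 1.93). P-values judge a difference between groups against the spread between rats within the groups of the fit. All 10 genes are described, with up to 4 called genes per pathway list and 3 nearest patterns for each of the 8 genes called in at least 2 of the 4 silica comparisons (not Nr1h3 or Mylip). The genes and lists were chosen with earlier results of these data known. A further gene of these lists is not reported here by name.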

Additional observations from a re-analysis of the deposited data

Results flagged for a closer look

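In 80 sets of 4 to 6 rats (10 genes in 8 groups), 6 had a rat far from the others by Dixon's criterion, which chance gives in about 5% of sets. Abca1 was 658 CPM in rat SO-03-40 (regular diet, air, 3 months), with the next rat at 520.2 CPM. Npc1 was 204 CPM in rat SO-03-46 (regular diet, silica, 3 months), with the next at 163 CPM. Ch25h was 23.9 CPM in rat SO-03-67 (high-fat diet, silica, 3 months), with the next at 17.7 CPM, and 9.58 CPM in rat SO_09_127 (high-fat diet, air, 9 months), with the next at 6.11 CPM. Nr1h3 was lowest in rat SO_09_133 (high-fat diet, silica, 9 months) at 51.2 CPM, with the next at 57.5 CPM. Apoe was 952 CPM in rat SO_09_134 of that group, with the next at 626 CPM.

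The silica difference itself differed between diets at 9 months for Abcg1, by 0.54 on the log2 scale. It was larger at 9 than at 3 months on the high-fat diet for Apoe (0.97), Npc2 (0.76), Abca1 (0.58), Npc1 (0.50), Soat1 (0.48), Abcg1 (0.48) and Nr1h3 (0.25). On the regular diet it was larger for Apoe (0.88) and Abca1 (0.63) and smaller for Ch25h (-1.63).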

How the results depend on the processing

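The silica counts were 6 and 6 genes at 3 months and 9 and 7 at 9 months. They were the same in every alternative listed under the processing and without each rat in turn. At 9 months the fit with the ribosomal RNA share cannot separate silica from that share. Of 47 called values of the 10 genes, 0 changed sign, and 13 calls were lost over the alternatives other than leaving out a rat. Uncalled values changed sign and stayed uncalled in 13 such cases, none larger than 0.178 in size.

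Between diets with silica at 3 months, 2 genes were called with no filter and with DESeq2 (Ch25h added), and 1 to 2 without single rats. Between diets at 9 months, 0 were called with the ribosomal RNA share as covariate, in air and with silica alike. Without single rats the count was 5 to 7 in air and 0 to 2 with silica. The interaction at 9 months was called for 4 genes with DESeq2 (Ch25h, Lipa and Npc1 added) and for 1 to 4 without single rats, with 4 without rat SO_09_112 or rat SO_09_133, 3 without rat SO_09_113 and 2 without rat SO_09_117. The time differences were called for 3 to 4 genes on the regular diet and 6 to 7 on the high-fat diet without single rats. Over all genes, the diet comparison in air at 3 months called 449, against 92 with the ribosomal RNA share, 730 with DESeq2 and 761 with 2 groups in the fit. With silica at 3 months it called 107, against 227 with DESeq2 and 59 with 2 groups, and with silica at 9 months 537, against 1 with the ribosomal RNA share. Silica on the regular diet at 9 months called 6885, against 4561 with that share. The interaction called 167 at 9 months, against 348 with DESeq2, and 0 at 3 months, against 1 with DESeq2. The time difference on the regular diet called 1068, against 284 with that share. Without single rats the all-gene counts also moved. The diet comparison in air at 3 months called 63 (without rat SO-03-42) to 530, and over 1.5-fold from 449 without 6 of 9 rats. With silica it called 55 (without rat SO-03-63) to 209 (without rat SO-03-45) at 3 months, and 260 (without rat SO_09_117) to 724 at 9 months. The interaction at 9 months called 72 (without rat SO_09_120) to 274 (without rat SO_09_112). The time difference called 667 (without rat SO-03-42) to 1338 on the regular diet and 1115 (without rat SO-03-64) to 1908 on the high-fat diet. The calls of single genes least often kept were Nr1h3 between times on the high-fat diet and Npc2 between diets in air at 9 months. The causes were not tested. No paired analysis was possible because every rat had its own tag.

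Ch25h, with 25 to 272 counts per library, is the least precise of the 10 genes. Groups of 4 to 6 rats limit every comparison, and a difference that was not called is not shown to be absent.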
